A study of Mus musculus with 6 samples.

Results

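The clustered protocadherins are cell-surface adhesion proteins encoded by tandem arrays of variable exons on mouse chromosome 18. Members were the rows of the deposited gene table whose symbols follow the names of the alpha (Pcdha), beta (Pcdhb) and gamma (Pcdhga, Pcdhgb, Pcdhgc) clusters. There were 58 such rows among 55416 genes: 14 in the alpha cluster, 22 in the beta cluster and 22 in the gamma cluster. The gamma rows were 12 of the A subfamily, 7 of the B subfamily and 3 of the C type. Total RNA was sequenced from the ganglionic eminences, the ventral forebrain swellings that generate striatal neurons and cortical interneurons, dissected from mouse embryos on gestational day E13.5. The 3 double knockout libraries lacked both Dlx1 and Dlx2, homeodomain transcription factors of these eminences, and the 3 controls were wild-type littermates. The labels name neither the mutant alleles and strain nor the number of embryos behind a library. They do not say whether each replicate came from a separate animal, so p-values measure the spread between these libraries, part of which may be technical.

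Each alpha or gamma transcript starts at the promoter of 1 variable exon, which encodes the extracellular cadherin repeats, the membrane span and part of the cytoplasmic tail, and is spliced to constant exons shared by the whole cluster. Beta members are single-exon genes with no constant region. In many neurons the alternate members are switched on in a stochastic, combinatorial way that depends on promoter methylation, CTCF and cohesin, while the C-type members (Pcdhac1, Pcdhac2, Pcdhgc3, Pcdhgc4 and Pcdhgc5) are expressed more broadly or by cell type. The proteins pair between cells as identical isoforms, and this recognition is used in self-avoidance of neurites, in axon tiling and in the survival of interneurons. In bulk tissue, a count of 1 isoform sums over many cells that may each use different isoforms. Fewer cells of a type and less RNA per cell cannot be told apart in such samples.

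The 6 libraries held between 56618090 and 70114173 counted reads, and members received between 26115 and 32509 of them, or 0.0373% to 0.0496%. A count of 3 corresponded to 0.0433 to 0.0520 CPM (read counts scaled by library size with TMM, the trimmed mean of M values), which covers counting error only. Dlx1 averaged 439 ± 6.12 CPM (SD, n = 3) in wild type and 81.6 ± 10.8 in the double knockout. Dlx2 averaged 296 ± 16.1 and 8.68 ± 1.99 CPM, so both targeted genes fell in every double knockout library (log2 fold changes of -2.43 and -5.09, edgeR adjusted p = 5.50e-06 and 2.59e-06). Reads of Dlx1 remained in the double knockout, and which exons the alleles remove is not stated in the labels. Nkx2-1, a marker of medial ventral progenitors, was present in every library. Y-linked genes were expressed in wild-type replicate 1 and double knockout replicates 2 and 3, and Xist in the other 3 libraries, so each group held libraries from animals of both sexes. Double knockout replicate 3 stood apart from the other members of its group for the alpha and beta clusters. Cluster medians, cluster sums and the named alpha estimates are therefore given with and without it.

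The exon models set how well a member can be counted. In the GENCODE M21 annotation the alpha, beta and gamma members span 257.5, 259.5 and 180.1 kb. Constant exons and other overlapping models on the same strand held 38.9% to 91.4% of the exon bases of an alpha member and 31.5% to 66.8% of those of a gamma member. Beta members shared none, apart from 9.7% of Pcdhb21 and 6.9% of Pcdhb22. How the authors' counting treated reads in shared exons, and whether it used strand, is not given in the sources used here. Levels are therefore compared between genes per kb of private exon, the bases that no other gene model covers on either strand. Pcdhga10 had no private base, because its variable exon lies wholly under Gm26672 on the opposite strand, and Pcdha4 had only 404, because the same-strand read-through model Gm42416 contains its variable exon. Their counts are uncertain, and no level per kb is given for either. Pcdhb12 likewise kept 1107 private bases beside Gm37446 on the opposite strand. In wild type Pcdhga10 had 4, 6 and 3 reads, while its neighbour Pcdhgb6 had 1193, 1446 and 1639 and Pcdhgb7 1150, 938 and 610. Whether the counting dropped reads that lie under a model of the opposite strand was not tested. The read-through models Gm42416, Gm37013, Gm37388 and Gm38182 had 0 reads in all 6 libraries. Variable exons are also similar to one another: 10.1% to 23.4% of the 50-base windows of an alternate alpha exon occurred exactly in another member, against 0% for the C-type exons, up to 12% in the beta cluster and up to 16.9% in the gamma cluster. The symbol Pcdha11 labels a pair of rows. ENSMUSG00000007440 starts where RefSeq places Pcdha10, and ENSMUSG00000102206 where it places Pcdha11, so the identifier is given with each.

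In the wild-type ganglionic eminences the gamma cluster supplied most of the protocadherin reads. The gamma cluster took 54.5% ± 1.69 (SD, n = 3) of all member reads, the beta cluster 35.2% ± 2.07 and the alpha cluster 10.3% ± 0.398. Median wild-type levels per kb of private exon were 3.27 CPM over 21 gamma members, 1.496 over 22 beta members and 1.22 over 13 alpha members. Pcdhgc3, the most broadly expressed C-type isoform in brain, had by far the highest level, 28.6 ± 3.99 CPM per kb. Counting only same-strand overlap lowers it to 15.4, because BC037039 lies opposite part of its exon, and it remains the highest of the members with a level. Pcdhgb6 (8.89 ± 1.02 CPM per kb), Pcdhgb7 (7.995 ± 2.78) and Pcdhga11 (7.32 ± 0.749) came next, and their SDs overlap. With same-strand overlap alone, Pcdhgb6 kept 8.89 CPM per kb, while Pcdhgb7 came to 5.62 and Pcdhga11 to 3.49, below Pcdhga4 at 5.33 and Pcdhac2 at 5.06, so the order after Pcdhgb6 depends on how the opposite strand was counted. Among alpha members Pcdhac2 led with 5.06 ± 0.0634 CPM per kb and Pcdha1 was lowest with 0.160 ± 0.0461. With same-strand overlap alone the Pcdha11 row ENSMUSG00000102206 was lower, at 0.112. In the beta cluster Pcdhb17 led with 4.04 ± 0.463 CPM per kb. Pcdhb1, the beta member at the alpha end of the array, had 2, 2 and 5 reads in the wild-type libraries and 3, 0 and 0 in the double knockout libraries, at or near the floor of 3 counts. A count of 0 allows up to that floor, so Pcdhb1 was not detectable at this depth in those libraries.

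**Figure D1:**
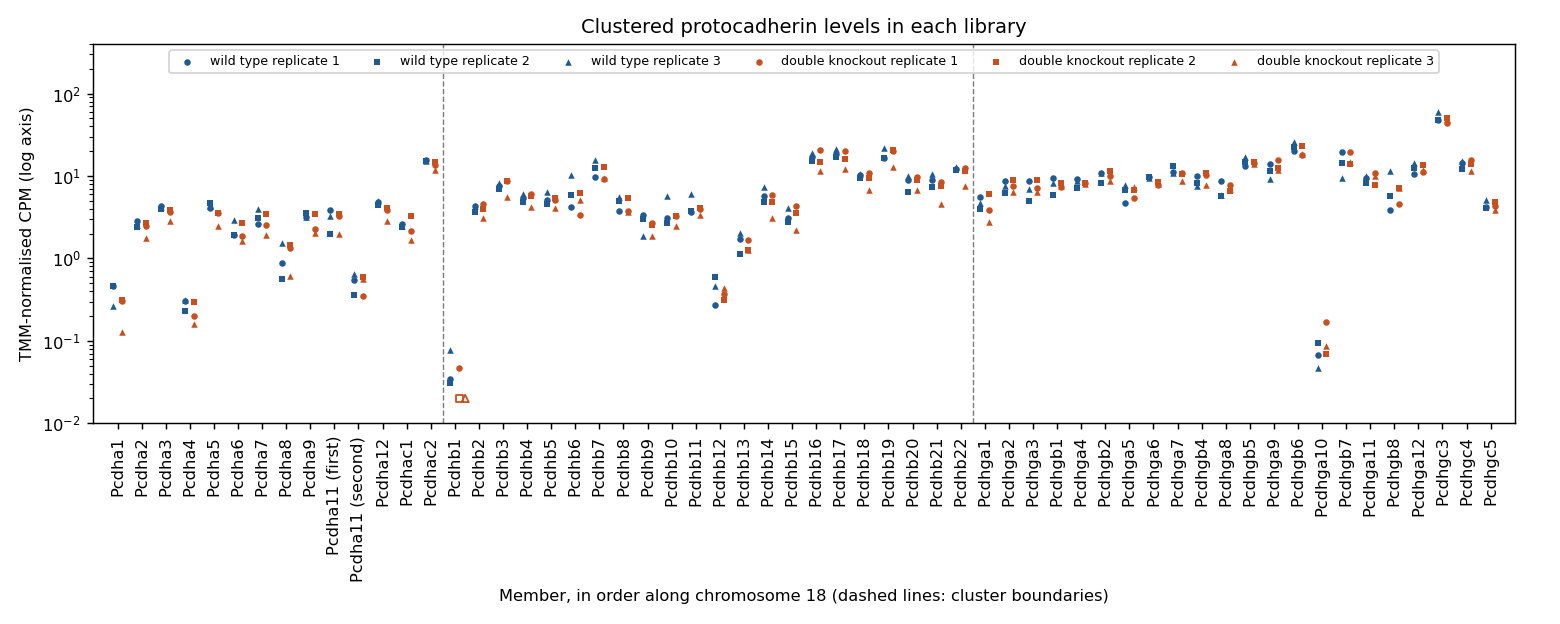
TMM-normalised CPM of each of the 58 members (log axis) in the 3 wild-type libraries (blue) and the 3 double knockout libraries (orange), in order along the chromosome; open symbols at 0.02 mark libraries with no read. Most members lie between 1 and 20 CPM, Pcdhgc3 lies highest at 44.5 to 60.5 CPM, and Pcdhb1 and Pcdhga10 lie lowest. Pcdhga10 has no private exon base, so its count is uncertain. The rows marked first and second are ENSMUSG00000007440 and ENSMUSG00000102206.

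The comparison of double knockout with wild type asks which genes differ in level when the DLX factors are missing. No clustered protocadherin passed the test. With edgeR's quasi-likelihood test, 0 of the 56 members that passed the filter on low counts had an adjusted p under 0.05, beside 634 of 23628 tested genes, or 2.68%. Of these 317 were above wild type (1.34%) and 317 below (1.34%). Pcdhb1 and Pcdhga10 did not pass the filter. At an unadjusted p under 0.05, 3 members were below wild type and none above, which is 5.36% of the members. Among tested genes 6.81% were below wild type at that p and 13.3% differed in either direction. DESeq2 and limma-voom also called 0, and the smallest adjusted p of any member was 0.225 with edgeR, for Pcdhga6. The 95% intervals give the range of differences compatible with these libraries: for 51 of 56 members the interval lay within 1 log2 unit of 0, and for 20 within 0.5.

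The estimates were small and lay mostly below 0 in the alpha and beta clusters. The log2 fold change was below 0 for 13 of 14 alpha members, 18 of 21 beta members and 12 of 21 gamma members, 43 of 56 in all (76.8%), against 50.5% of tested genes. Median log2 fold changes were -0.23 for alpha, -0.21 for beta and -0.02 for gamma, beside 0 for all tested genes. The members share libraries, constant exons and neighbouring promoters and are not independent of one another. Without double knockout replicate 3, only 31 of 56 estimates were below 0 (55.4%), and the medians were -0.11, -0.04 and 0.03. Without wild-type replicate 3, 32 of 56 were (57.1%). Without wild-type replicate 2, and again without double knockout replicate 2, 51 of 56 were (91.1%). Without replicate 1 of wild type 41 of 56 were (73.2%), and without that of the double knockout 44 of 56 (78.6%). With total count scaling 38 of 56 were (67.9%), and the median of all genes was 0.027.

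**Figure D2:**
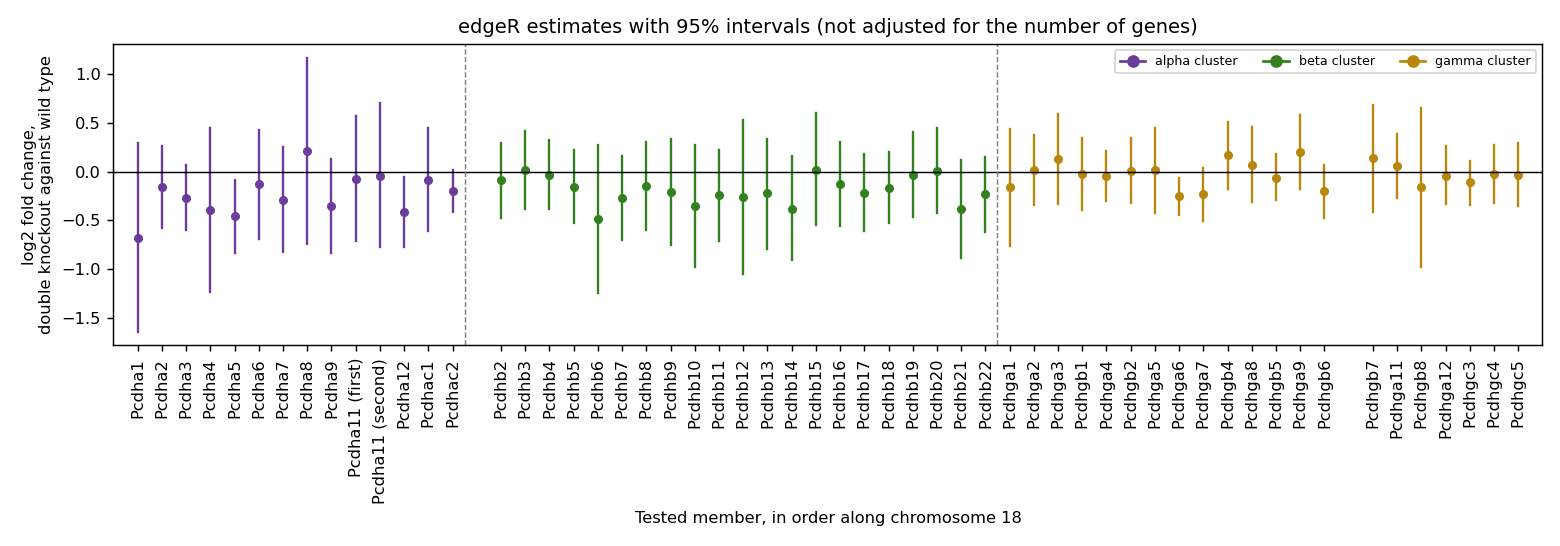
edgeR log2 fold change (double knockout against wild type) of each of the 56 tested members in order along the chromosome, with 95% intervals not adjusted for the number of genes. Estimates run from -0.68 for Pcdha1 to 0.21 for Pcdha8, and 13 of 14 alpha, 18 of 21 beta and 12 of 21 gamma estimates lie below 0.

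The summed level of each cluster overlapped between the groups. The alpha sum was 47.9, 45.3 and 50.1 CPM in wild-type replicates 1 to 3 and 41.7, 48.0 and 32.4 CPM in double knockout replicates 1 to 3. Double knockout replicate 2 lay within the wild-type values and replicate 3 far below them, so the groups overlapped. The ratio of means was 0.853, and 0.939 without replicate 3 of the double knockout. The beta sum was 153, 147 and 190 CPM in wild type and 166, 157 and 112 CPM in the double knockout. Its ratio of 0.889 became 0.990 without double knockout replicate 3 and 0.968 without wild-type replicate 3, the lowest and the highest library. The gamma sum was 255, 235 and 267 CPM against 245, 258 and 232 CPM, with a ratio of 0.972, and 0.998 without double knockout replicate 3. The 3 gamma subfamilies had ratios of 0.989 (A), 0.980 (B) and 0.940 (C type), each with overlapping groups.

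**Figure D3:**
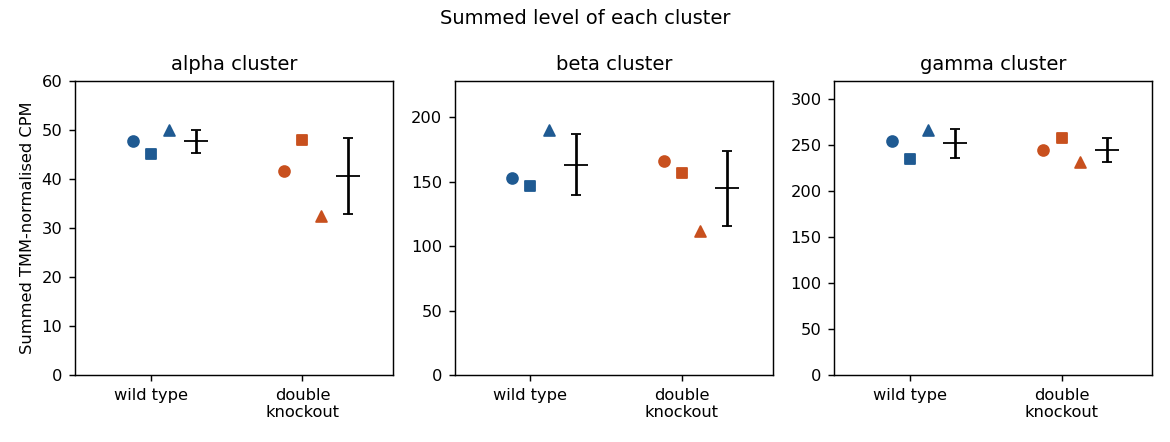
Summed TMM-normalised CPM of the alpha, beta and gamma clusters in each library (circle, square and triangle for replicates 1, 2 and 3), with mean and SD of the 3 libraries per group beside them. The groups overlap in all 3 clusters, and double knockout replicate 3 is the lowest library in each, at 32.4, 112 and 232 CPM.

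Of the 14 alpha members 4 had all their double knockout values below their wild-type values (28.6%). Over all tested members this was 6 of 56 (10.7%), against 10.2% of tested genes, and 0 of 56 lay wholly above, against 9.3%. Pcdha5, an alternate isoform, had 4.06, 4.73 and 4.37 CPM in wild type and 3.54, 3.59 and 2.49 CPM in the double knockout. Its log2 fold change was -0.45 (SE 0.164, 95% interval -0.83 to -0.08, edgeR adjusted p = 0.261). Pcdha12, the last alternate exon before the C types, had 4.88, 4.47 and 4.97 CPM against 3.88, 4.09 and 2.81 CPM. The groups did not overlap in either gene, and the log2 fold change of Pcdha12 was -0.41 (SE 0.158, edgeR adjusted p = 0.298). Part of the exon of Pcdha12 lies opposite Gm10545, which has reads of its own. Pcdha3 had 4.30, 3.95 and 4.22 CPM against 3.70, 3.87 and 2.83 CPM, close together but without overlap. The largest estimate of the cluster, -0.68 (SE 0.424), belonged to Pcdha1, with 0.461, 0.467 and 0.265 CPM against 0.308, 0.312 and 0.130 CPM. Its groups overlapped and its 95% interval ran from -1.64 to 0.29. The single alpha estimate above 0 was that of Pcdha8, at 0.21 with an interval from -0.74 to 1.17, and its values in wild type ranged from 0.560 to 1.53 CPM. The row ENSMUSG00000007440 named Pcdha11 had an estimate of -0.07 and ENSMUSG00000102206 one of -0.04. Without double knockout replicate 3 the estimates were -0.29 for Pcdha5, -0.25 for Pcdha12 and -0.35 for Pcdha1. That of Pcdha3 was -0.27 with all libraries and -0.13 without that replicate.

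Pcdhac2, the C-type alpha isoform that serotonergic axons need for tiling, was the most steadily counted alpha member in wild type. It had 15.5, 15.1 and 15.4 CPM in wild type and 13.7, 14.7 and 11.8 CPM in the double knockout. All 3 double knockout values lay below the wild-type values, and the log2 fold change was -0.20 (SE 0.0944, 95% interval -0.41 to 0.02, edgeR adjusted p = 0.432). The 4 markers of serotonergic neurons summed to 3.46 to 4.15 CPM in wild type and 3.30 to 4.04 CPM in the double knockout, nearly all of it Ddc, an enzyme shared with other monoamine neurons. Tph2 and Fev, which define serotonergic neurons, did not pass the filter on low counts, and Fev had 0 reads in 5 of 6 libraries. Pcdhac1, the other C-type alpha isoform, had 2.59, 2.38 and 2.49 CPM against 2.17, 3.26 and 1.67 CPM. The wild-type values were close together while the double knockout values spread on both sides of them (log2 fold change -0.08, SE 0.233). Without double knockout replicate 3 the estimates were -0.11 for Pcdhac2 and 0.13 for Pcdhac1.

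The C-type gamma isoforms had estimates close to 0, with overlapping groups. Pcdhgc3 had 47.7, 48.3 and 60.5 CPM in wild type and 44.5, 51.0 and 49.2 CPM in the double knockout. Only wild-type replicate 3 stood out, and the log2 fold change was -0.11 (SE 0.0994, 95% interval -0.34 to 0.11). Pcdhgc4, the isoform needed for interneuron and other neuronal survival, had 14.4, 12.3 and 15.3 CPM against 15.8, 13.98 and 11.6 CPM. Those values interleaved completely, and the interval of -0.32 to 0.27 around an estimate of -0.02 bounds the difference. Pcdhgc5, a C-type isoform that appears mainly later in brain development, had 4.18, 4.05 and 5.08 CPM against 4.33, 4.86 and 3.86 CPM (-0.03, interval -0.35 to 0.29). All 3 intervals lay within 0.5 log2 units of 0.

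In the beta cluster none of the 21 tested members separated the groups, against 19.5% of all tested genes in either direction. The 3 with the highest CPM lie next to or near each other in the array. Pcdhb17 had 18.5, 16.9 and 21.2 CPM in wild type and 20.4, 16.1 and 12.2 CPM in the double knockout (log2 fold change -0.22, SE 0.174). Its neighbour Pcdhb16 had 16.9, 15.4 and 19.1 CPM against 20.6, 14.9 and 11.6 CPM (-0.13, SE 0.189). In both genes double knockout replicate 3 was the lowest library and replicate 1 was among the highest. Pcdhb19 had 16.6, 16.4 and 21.8 CPM against 20.4, 20.6 and 12.7 CPM, with an estimate of -0.03 (SE 0.190). Without double knockout replicate 3, the remaining libraries of the knockout lie within the wild-type range for Pcdhb19. The largest beta estimate was -0.48 (SE 0.330) for Pcdhb6, with 4.18, 5.88 and 10.4 CPM against 3.39, 6.16 and 5.12 CPM. It rests on wild-type replicate 3: the estimate was -0.04 without that library and as far as -0.74 in another alternative. Pcdhb21 followed at -0.38 (SE 0.221), with 8.99, 7.44 and 10.5 CPM against 8.55, 7.51 and 4.63 CPM, a pair of double knockout libraries lying among the wild type.

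Among the gamma-A isoforms, Pcdhga6 had the smallest p of all members and very little spread. It had 9.66, 9.77 and 9.43 CPM in wild type and 7.89, 8.41 and 7.97 CPM in the double knockout. The double knockout libraries all lay below the wild type, and the estimate was -0.25 (SE 0.0847, 95% interval -0.44 to -0.06, edgeR unadjusted p = 0.0171, adjusted p = 0.225). Over the 14 alternative analyses the estimate of Pcdhga6 stayed between -0.28 and -0.22, and its adjusted p between 0.178 and 0.517. Its neighbour Pcdhga7 had 11.3, 13.4 and 10.9 CPM against 10.8, 10.6 and 8.72 CPM, with the groups almost touching (-0.23, SE 0.120). Pcdhga12, the last gamma-A exon, had 10.6, 12.5 and 14.5 CPM against 11.1, 13.6 and 11.9 CPM (-0.04, SE 0.130), with full overlap. The highest estimate of the subfamily was 0.20 (SE 0.166) for Pcdhga9, with 14.04, 11.4 and 9.09 CPM against 15.5, 12.5 and 11.7 CPM. In wild type it varied more between libraries than between the group means. Pcdhga10, which was not tested, had 4, 6 and 3 reads in wild type and 11, 4 and 6 in the double knockout.

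None of the 7 gamma-B isoforms separated the groups, against 19.5% of all tested genes in either direction. Pcdhgb6, the most abundant of them, had 20.4, 22.5 and 25.6 CPM in wild type and 18.1, 23.0 and 18.6 CPM in the double knockout (-0.20, SE 0.118). Pcdhgb5 had 13.3, 14.7 and 17.2 CPM against 14.5, 14.9 and 14.1 CPM (-0.06, SE 0.103), the knockout values lying inside the wild-type range. Pcdhgb4 had 10.1, 8.23 and 7.48 CPM against 10.2, 10.8 and 7.89 CPM, with an estimate of 0.17 (SE 0.152). Pcdhgb7 is described with the members of large spread.

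Many members had their extreme value in the same library. Double knockout replicate 3 was the lowest library for 31 of 56 members (55.4%), against 23.2% of tested genes, and the highest for none. By cluster it was lowest in 12 of 14 alpha, 15 of 21 beta and 4 of 21 gamma members. The median deviation from the mean of the 6 libraries (log2 CPM) in that library was -0.53 for alpha, -0.41 for beta and -0.06 for gamma members, beside 0.004 for all tested genes. The deviation was uneven along the locus: alpha and beta members took 8.62% and 29.8% of member reads there, the lowest shares of the 6 libraries, and gamma members 61.6%, the highest. Wild-type replicate 3 was the highest library for 27 of 56 members (48.2%), against 12.1% of tested genes, and for 14 of 21 beta members, whose median deviation there was 0.30.

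**Figure D4:**
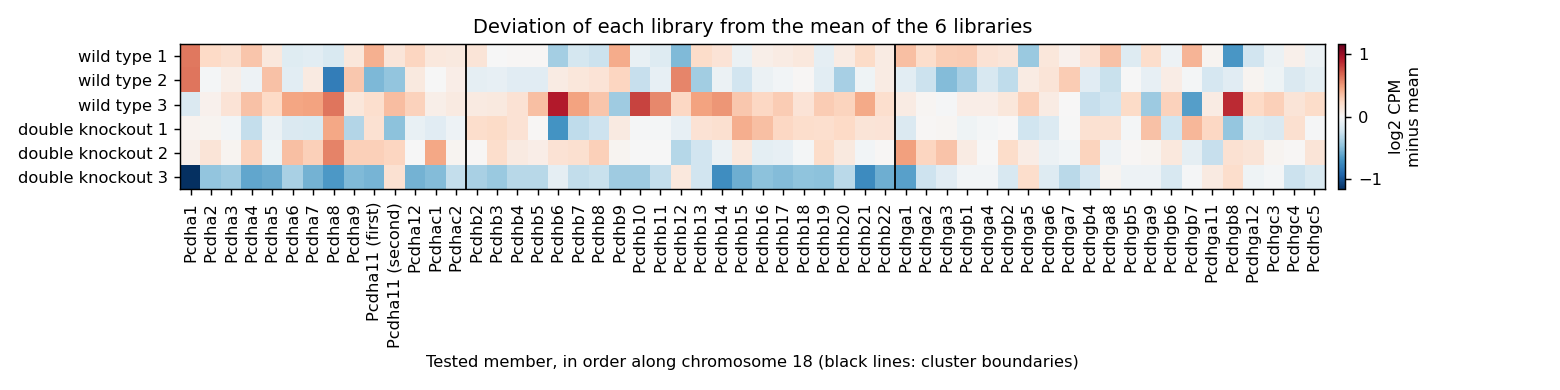
Deviation of each library's log2 CPM from the mean of the 6 libraries for the 56 tested members (columns, in order along the chromosome; red above, blue below, scaled symmetrically to the largest deviation). Double knockout replicate 3 is below the mean across nearly all alpha and beta members, with medians of -0.53 and -0.41, and near it in most gamma members, while wild-type replicate 3 is above it in most beta members.

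The same libraries differed in cell type markers. The summed level of 8 neuronal markers was 5954 to 6451 CPM in wild type and 4882 to 5596 CPM in the double knockout, and 8 radial glia and progenitor markers summed to 2111 to 2388 CPM and 2536 to 2924 CPM. Double knockout replicate 3 had the lowest neuronal and the highest radial glial sum. The single-gene test called 2.68% of all tested genes. By that test 1 of 8 neuronal markers fell (Elavl3, an RNA-binding protein of neurons) and 1 of 8 radial glial markers rose (Hes5, a Notch effector). Of 8 ventral forebrain and GABAergic markers 6 fell and 1 rose. The 1 that rose was Nkx2-1, with 118.5, 138.7 and 126.8 CPM in wild type and 178.9, 169 and 230.9 CPM in the double knockout. Its log2 fold change was 0.59 (edgeR adjusted p = 0.0322). All 4 oligodendrocyte lineage markers rose, from sums of 64.0 to 65.4 CPM to sums of 124 to 165 CPM, again highest in double knockout replicate 3. Of 7 cortical excitatory markers 1 fell, with sums of 885 to 903 CPM and 696 to 716 CPM. Sums for microglia, vessels, meninges and blood overlapped between the groups, with none of their genes called. No marker other than Fev was at 0 in most libraries. The part of these differences in the protocadherin values was not tested.

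By medians, members varied between libraries of a group somewhat more than other genes of their level, and a few varied much more. Spread was measured with edgeR's biological coefficient of variation (BCV, the spread beyond counting error). Its median over tested members was 16.99%, beside a median trend of 14.92% for their levels. Over all tested genes it was 13.35%, beside 15.13%. By cluster the medians were 20.73% beside 17.99% (alpha), 17.59% beside 15.64% (beta) and 14.19% beside 13.83% (gamma). The BCV was at least 1.5 times the trend for its level in 4 of 56 members (7.14%), against 4.42% of tested genes. Those were Pcdhgb8 (2.08 times the trend), Pcdhb6 (1.87), Pcdhgb7 (1.73) and Pcdha8 (1.62), picked out after their values had been seen. Pcdhgb8, annotated as a polymorphic pseudogene, had 3.91, 5.73 and 11.5 CPM in wild type and 4.58, 7.08 and 7.24 CPM in the double knockout. Pcdhgb7 had 19.6, 14.6 and 9.51 CPM against 19.5, 13.9 and 14.7 CPM. The pair mirrored each other: wild-type replicate 1 and double knockout replicate 1 had the highest Pcdhgb7 and the lowest Pcdhgb8, and wild-type replicate 3 the reverse. The groups overlapped in both, with estimates of -0.16 (SE 0.357) for Pcdhgb8 and 0.14 (SE 0.240) for Pcdhgb7.

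**Figure D5:**
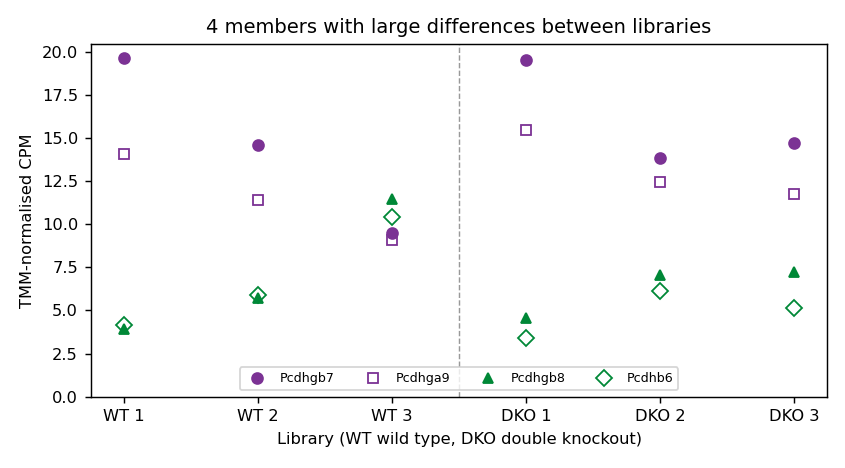
TMM-normalised CPM of Pcdhgb7, Pcdhga9, Pcdhgb8 and Pcdhb6 in each library (WT wild type, DKO double knockout), chosen for their spread. Where Pcdhgb7 and Pcdhga9 are high, in replicate 1 of both groups, Pcdhgb8 and Pcdhb6 are low, and in wild-type replicate 3 all 4 lie between 9.09 and 11.5 CPM.

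These patterns crossed subfamilies and clusters. Over the 6 libraries, deviations from the group means of Pcdhgb7 correlated at r = -0.99 with those of Pcdhgb8 and at 0.97 with those of Pcdhga9, and those of Pcdhb6 at 0.98 with Pcdhgb8. All such values are descriptions of 6 points that share libraries and scaling, from members chosen for their spread. Without wild-type replicate 3, the library with the most extreme values, the 3 correlations were -0.99, 0.96 and 0.95 over 5 libraries. Without centring on the groups, 5 of the 55 other tested members reached an r of 0.9 in size with Pcdhgb8: Pcdhb6, Pcdhga5 and Pcdhga12 with a positive sign and Pcdhga9 and Pcdhgb7 with a negative one. That is 9.09%, beside 1.09% of 92 other tested genes within 2000 kb, 1.19% of 506 farther away on the chromosome and 0.816% of 22673 on other chromosomes. Pcdhgb8, Pcdhb6 and Pcdhgb7 had been picked for their spread in these same values. The shares therefore describe these libraries and are no test of an excess among members. Pcdhgb8 has a sequence match to other members in 9.18% of its variable exon windows and Pcdhgb7 in 2.67%. Whether reads of similar exons were assigned to one another in some libraries was not tested.

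Neighbouring members tended to move together between libraries, most of all in the beta cluster. In the alpha cluster adjacent pairs differed little from all pairs. The median correlation of deviations from the group means was 0.80 over 52 pairs of adjacent members of 1 cluster, 0.60 for pairs 2 to 5 places apart, 0.39 for those farther apart and 0.39 for pairs from different clusters. Adjacent beta members had a median of 0.92, alpha members 0.77 and gamma members 0.51. Pcdhb16 and Pcdhb17 (r = 0.99) moved together, while Pcdhb6 and Pcdhb16, in the same cluster, had r = -0.18. Over all pairs within a cluster the medians were 0.72 for alpha, 0.67 for beta and 0.16 for gamma, beside 0.56 between alpha and beta members. Each value rests on the same 6 libraries. Without double knockout replicate 3 the median of adjacent members was 0.72 (beta 0.90, alpha 0.57, gamma 0.35) and that between alpha and beta members 0.13, so the latter rested on that library. Without wild-type replicate 3 the median of adjacent members was 0.80 and that between alpha and beta members 0.71. Pairs over 5 places apart in 1 cluster then had a median of 0.58. Adjacent alpha members had 0.71, below the 0.82 of all alpha pairs. For beta these values were 0.92 and 0.85, and for gamma 0.46 and 0.27. These recalculations were chosen after seeing the data.

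Genes known to control protocadherin choice were measured precisely and did not pass the test. The 26 such genes covered CTCF, cohesin and its loaders, DNA methyltransferases, TET enzymes, SMCHD1 and SETDB1 repressor components. Of these, 0 were called by edgeR, beside 2.68% of all tested genes. An unadjusted p under 0.05 was found for 1 of 26, beside 13.3% of all tested genes. DESeq2 and limma-voom also called 0. Their median log2 fold change was 0.01, and all 26 intervals lay within 0.5 log2 units of 0. Ctcf, which loops promoters to distal enhancers, had 178 ± 6.40 CPM (SD, n = 3) and 177 ± 6.73 CPM (interval -0.12 to 0.11). Stag2, a cohesin subunit, had the lowest p, with 201 ± 7.13 and 220 ± 10.2 CPM (log2 fold change 0.13, edgeR adjusted p = 0.35), and Tet1, a 5-methylcytosine oxidase, the next, with 120 ± 3.88 and 131 ± 9.34 CPM (0.13, adjusted p = 0.422).

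Among 25 intracellular partners and proteases of the clustered protocadherins, 1 was called, beside 2.68% of all tested genes. Prkcd, a protein kinase C isoform, had 21.5, 19.9 and 19.4 CPM in wild type and 15.7, 14.4 and 14.2 CPM in the double knockout. It fell by 0.45 on the log2 scale (SE 0.0797, edgeR adjusted p = 0.0213) with no overlap of the groups. The call was lost with the Y-linked level as a covariate (adjusted p = 0.0653) and without wild-type replicate 1 (0.107), 2 (0.0687) or 3 (0.0547) or double knockout replicate 2 (0.0986). The WAVE complex subunits bound by the cytoplasmic tails (Cyfip1, Cyfip2, Nckap1, Wasf1, Wasf2, Abi1, Abi2 and Brk1) were not called, nor was the shedding protease Adam10. An edgeR unadjusted p under 0.05 was found for 6 of the 25, beside 13.3% of all tested genes. Those 6 were 4 below wild type and 2 above.

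Non-clustered protocadherins, single genes of the same superfamily outside the alpha, beta and gamma clusters, gave 1 call among 12, beside 2.68% of all tested genes. Pcdh8 had 50.8, 49.6 and 46.3 CPM in wild type and 35.0, 35.4 and 29.4 CPM in the double knockout and fell by 0.56 on the log2 scale (SE 0.0813, edgeR adjusted p = 0.00895). Without wild-type replicate 2 its adjusted p was 0.0502. Without double knockout replicate 3, Pcdh11x and Pcdh19 were called as well, both above wild type. With all libraries, 4 of the 12 had an edgeR unadjusted p under 0.05, beside 13.3% of all tested genes. Those 4 were 3 above wild type and 1 below. The median log2 fold change of the 12 was 0.09, beside -0.14 for the 56 clustered members. The difference between these lists was not tested.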

How the data were processed

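The authors deposited raw, unnormalised gene counts of the 6 libraries in 1 table, with featureCounts and GRCm39 named in the submitters' processing notes. The aligner, annotation release and settings are not given in the sources used here. Per the labels, frozen tissue gave total RNA with a DNase step for stranded, ribosomal RNA-depleted libraries. All sample columns were used, and 1492 genes without a symbol were kept.

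Counts were filtered with filterByExpr (minimum count 10, total 15), scaled by TMM and tested with edgeR 4.0.16's two-sided quasi-likelihood test (R 4.3.3, prior count 0.125), with Benjamini-Hochberg adjustment over 23628 genes and a threshold of 0.05. CPM values are TMM-scaled. The procedure was tested on simulated data. Alternatives were DESeq2 1.42.0 and its size factors, limma-voom (limma 3.58.1), total count scaling, other filters, a replicate block, a Y-linked covariate and leaving out each library.

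Exon overlap, gene order and the sharing of 50-base windows came from GENCODE M21 (GRCm38), which held 94.1% of the table's identifiers and all 58 members. No coordinates are printed, since the builds differ, and no sequences are shown.

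The members, lists and settings were chosen with earlier results of these data known. Named were Dlx1 and Dlx2, called members, the C types, and in each of alpha, beta, gamma-A and gamma-B the 3 members of highest mean CPM and the 2 largest estimates. In the other lists called genes were named, or the 2 of lowest p. Other genes were named after their values had been seen. Some genes of these lists are not reported here.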

Additional observations from a re-analysis of the deposited data

How the results depend on the processing

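No clustered protocadherin was called under any of the 14 alternatives, with 52 to 58 members tested and a smallest adjusted p of 0.144, without double knockout replicate 2. Of 22 named members, 13 kept the sign of their estimate in every alternative that gave one and 9 changed it in at least 1. The share of member estimates below 0 ran from 55.4% to 91.1% (76.8% with all libraries). Medians ran from -0.37 to -0.11 (alpha), -0.28 to -0.04 (beta) and -0.10 to 0.05 (gamma) when 1 library was left out. The count of called genes was 634, but 1168 with DESeq2, 358 with the Y-linked covariate and 309 to 749 with 1 library left out. For the partners the count of 1 became 2 with DESeq2, which added Ret, 0 with the Y-linked covariate and 0 to 1 with 1 library left out. For the non-clustered protocadherins it was 0 to 3 with 1 library left out. The cause was not tested.

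Whether same-numbered libraries pair is not settled: correlations of their deviations from the group means were -0.095, -0.00477 and -0.00745 over all tested genes, and 0.128, 0.128 and 0.0969 over the 16482 that averaged 1 CPM or more once sex-linked markers were removed. Not every pair exceeded 0.1, so the block remains an alternative. With the replicate block 690 genes and 0 members were called, with cluster medians of -0.24, -0.19 and -0.03. Pcdhb1, Pcdhga10, Pcdha1 and Pcdha4 have few reads, and overlapping gene models limit what the alpha and gamma counts can show, most of all for Pcdhga10 and Pcdha4.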

Other observations

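Some transcripts on the opposite strand within the clusters had reads of their own. Gm10544, opposite the Pcdha11 row ENSMUSG00000102206, had 302, 402 and 322 reads in wild type and 296, 292 and 248 in the double knockout. Gm10545, opposite Pcdha12 and the same row, had 79, 94 and 97 reads against 111, 111 and 57. Gm26672, which lies opposite Pcdhga10 and parts of Pcdhgb7, Pcdhga11 and Pcdhga12, had 155, 198 and 213 reads against 189, 197 and 236. BC037039, opposite Pcdhgc3, had 99, 119 and 136 reads against 136, 151 and 121. These raw counts overlap between the groups for Gm10545, Gm26672 and BC037039. For Gm10544 all 3 double knockout counts lie below the wild-type counts, but the libraries differ in depth. Double knockout replicate 2, with 292 reads, held 56618090 counted reads, against 65505682 in wild-type replicate 3, with 322. No separation of the groups is therefore read from these raw counts. How reads were divided between these genes and the members they overlap was not tested.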
